A study of Mus musculus with 12 samples.

Results

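Mouse eggs that had received siRNA against Dcp2 were compared with eggs that had received control siRNA, on 3 arrays each. These 6 arrays were chosen by their siRNA labels out of the 12 arrays of the series. The other 6, from eggs given Dcp1a siRNA alone or both siRNAs, served to see whether a difference recurred. All eggs were of the CF1 strain. Every group had been injected as full-grown, germinal vesicle stage oocytes with siRNA from Dharmacon ON-TARGETplus SMARTpools, each a mixture of siRNAs. All were then kept for 20 h in milrinone, which blocks the resumption of meiosis, and matured for 18 h to metaphase of the second meiotic division. Each array held the RNA of 30 eggs, and the design describes 3 independent biological replicates per group. The control eggs therefore share the injection, the milrinone and the culture with the knockdown eggs, and uninjected eggs were not analysed here. The comparison asks which mRNAs differ in the egg when the enzyme that decaps mRNA is reduced during maturation.

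Dcp2 removes the 5′ cap from mRNA, a step that usually follows shortening of the poly(A) tail and that exposes the body of the message to the exonuclease Xrn1. It works with cofactors, among them Dcp1a, Dcp1b, Edc3 and Edc4, and with activators such as Ddx6, Patl1 and the Lsm1 to Lsm7 ring. A full-grown oocyte is transcriptionally quiescent and lives on stored maternal mRNA, much of which is degraded during maturation. The mRNAs of Dcp1a and Dcp2 are themselves stored in a dormant state and are translated once maturation begins.

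Dcp2 mRNA was close to the floor of the intensity scale, 4.9 units, in every egg pool that had received Dcp2 siRNA. Its tested probe set read 32.2, 30.4 and 81.8 intensity units on control arrays 1 to 3, against 5.0, 4.9 and 5.0 after Dcp2 siRNA. It read 32.4, 49.2 and 57.1 after Dcp1a siRNA and 5.0, 4.9 and 4.9 after both. The groups with and without Dcp2 siRNA did not overlap on any array. Dcp2 mRNA fell by 3.12 on the log2 scale relative to control, with a standard error of 0.34 and an adjusted p of 0.0152. The control signal was itself dim, so that the fold is best given as a bound. Against 32 units, the level above which a probe set counted as measured here, Dcp2 mRNA was at least 1.35-fold lower. With all values under 32 set to 32 the change was -0.45 and the call was lost (adjusted p 0.508), as it was without Dcp2 knockdown replicate 1 (0.129) or replicate 3 (0.113), without a filter (0.161) and with the variance of the 6 compared arrays alone (0.691). The other Dcp2 probe set stayed at 4.9 units on all 12 arrays and carries no information.

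Dcp1a mRNA, the target of the other siRNA, was not detectably changed by the Dcp2 siRNA in its brightest probe set. Its brightest probe set read 12430, 5385 and 8083 units in control eggs and 7449, 10250 and 6397 after Dcp2 siRNA, so the ranges overlapped. The log2 change was -0.05 ± 0.42 (SE), with an adjusted p of 0.961. The same probe set read 1208, 589 and 1236 after Dcp1a siRNA. Of its other probe sets, 1 ran from 25.9 to 3376 units among the controls, too wide a spread to compare. The other was dim, at 36.6, 37.4 and 46.9 units in control eggs and 24.8, 34.4 and 14.6 after Dcp2 siRNA, beside 5.6, 5.2 and 5.6 after Dcp1a siRNA. These did not overlap, with a fitted change of -0.79 ± 0.26 (adjusted p 0.425), at least 1.22-fold lower against 32 units. Replicate 2 of the Dcp2 knockdown, which differs from the other 2 in many transcripts, thus carried the Dcp2 signal of a Dcp2 knockdown and the Dcp1a signal of a control.

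**Figure D1:**
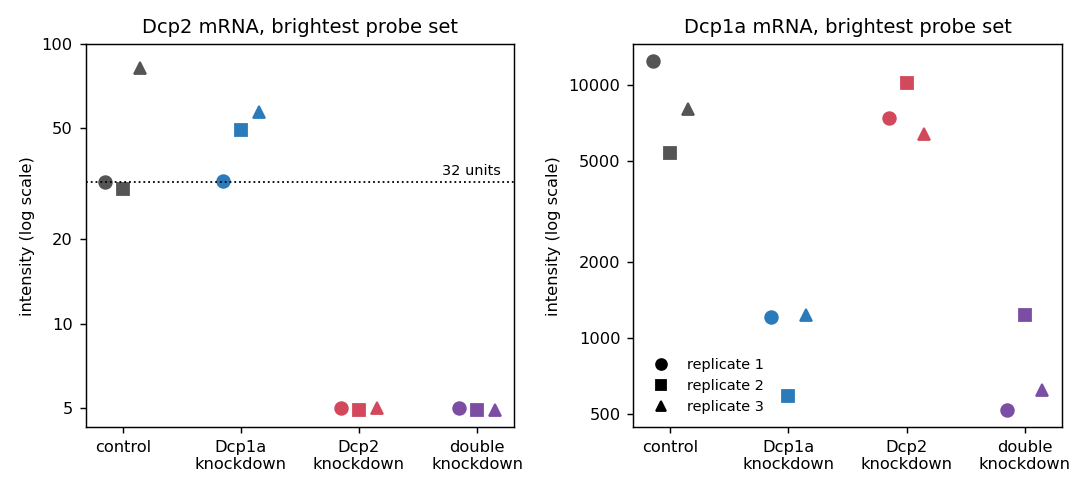
Intensity (log scale) of the brightest probe set of Dcp2, left, and of Dcp1a, right, on each of the 12 arrays, with 1 symbol per array and the shape giving the replicate. Dcp2 lies near 5 units on all 6 arrays with Dcp2 siRNA, including replicate 2 of the Dcp2 knockdown (4.9), and the dotted line marks 32 units. Dcp1a is low on the 6 arrays with Dcp1a siRNA only.

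The egg pools looked like eggs. All 14 egg marker genes on the array were measured, and their summed intensity ranged from 105100 to 145300 on control arrays and from 110500 to 143300 on Dcp2 knockdown arrays. Of 25 cumulus and granulosa markers, 23 stayed at or under 32 units on all 6 arrays. The list's summed level was 1666 to 2272 in controls and 1806 to 2726 in the Dcp2 knockdown, with Nr5a2, at 1499 to 2131 in controls, making up most of it. Of 20 markers of other ovarian, stromal and blood cells, 19 stayed at or under 32 units, and their sums were 151.3 to 161.6 and 145.3 to 154.2. Each array is a pool, so fewer eggs with a transcript and less transcript per egg cannot be told apart.

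The 3 Dcp2 knockdown arrays did not form a group of their own. Replicates 1 and 3 correlated at r = 0.973 over the 11593 tested probe sets. Replicate 2 correlated at 0.938 to 0.963 with the other 2, but at 0.967 to 0.973 with the control arrays and at 0.978 to 0.985 with the Dcp1a knockdown arrays. The number of probe sets more than 1 log2 unit below the control mean was 997 on replicate 1, 262 on replicate 2 and 2192 on replicate 3. The number more than 1 above it was 211, 103 and 721, so replicate 3 lay farthest from control and replicate 2 nearest. The control arrays varied as well. Set against the mean of the other 2 controls, controls 1 to 3 had 640, 976 and 404 probe sets more than 1 below and 1384, 75 and 821 more than 1 above, numbers of the same order as those of the Dcp2 knockdown arrays. Control 1 correlated at 0.938 to 0.954 with the other controls and at 0.978 to 0.988 with the Dcp1a knockdown arrays. Within-group standard deviations over the tested probe sets had a median of 0.368 log2 in the control and 0.376 in the Dcp2 knockdown, against 0.159 in the Dcp1a knockdown.

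**Figure D2:**
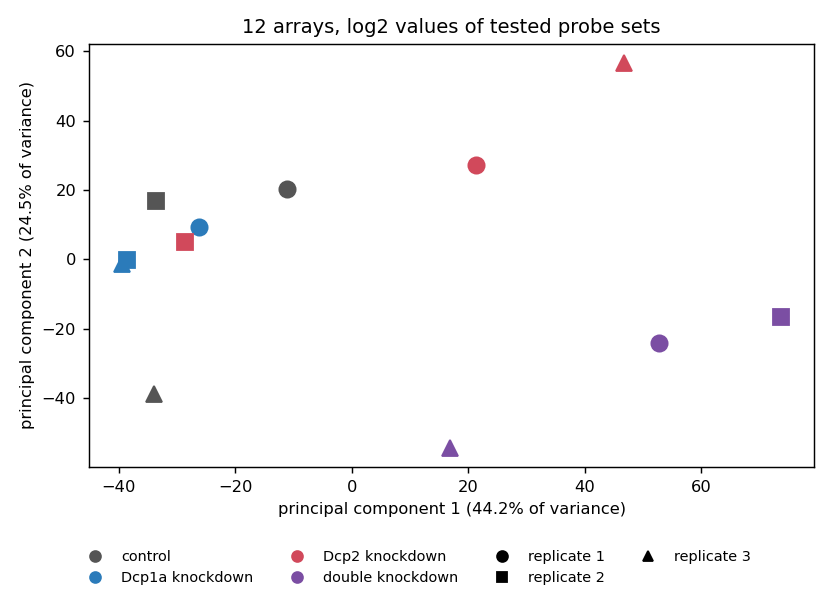
First and second principal components of the log2 values of the tested probe sets on the 12 arrays (44.2% and 24.5% of the variance), with colours for groups and shapes for replicates. Dcp2 knockdown replicate 2 lies at -28.7 on the first component, beside the control and Dcp1a knockdown arrays, and replicates 1 and 3 lie at 21.4 and 46.8.

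Few transcripts were called different from control, and with the variance of the 6 compared arrays alone 0 probe sets were. The main test took its variance from all groups, the less variable Dcp1a knockdown included, so its calls are not measured against the spread of the compared arrays alone. Of 11593 tested probe sets, 2 passed an adjusted p of 0.05 (0.0173%), both of them lower: Dcp2 itself and Rlf. By limma's test 0 were higher. At an unadjusted p under 0.05, 927 probe sets were lower (8%) and 356 higher (3.07%). Log2 changes ran from -1.02 at the 5th percentile to 0.63 at the 95th, around a median of -0.11. The excess of lower over higher rests on the scaling. With each array centred on its own median the median change was 0.07 and 550 probe sets were lower against 829 higher, and after quantile normalization it was 0.03, with 553 lower and 727 higher.

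The arrays left out moved the count of calls. Without control 1, 223 probe sets were called, 188 higher and 35 lower. Without Dcp2 knockdown replicate 2, 12 were called, 11 of them lower. Without control 3 a single call was left, and without Dcp2 knockdown replicate 1 or replicate 3 there were 0.

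Rlf, which encodes a zinc finger protein, was the 1 transcript besides Dcp2 to pass. Its probe set read 57.6, 103.1 and 79.0 units in control eggs and 21.2, 23.4 and 21.2 after Dcp2 siRNA, a gap that held for every array. It read 67.4, 76.9 and 83.6 after Dcp1a siRNA and 22.3, 22.6 and 21.0 after both, so all 6 arrays with Dcp2 siRNA were low and all 6 without it were high. Rlf fell by 1.83 on the log2 scale (SE 0.21, adjusted p 0.0152), or at least 2.43-fold against 32 units. The added fall in eggs that also had Dcp1a siRNA was -1.79 with an adjusted p of 0.000383. The Rlf call against control was lost, at adjusted p from 0.113 to 0.129, when control 3, Dcp2 knockdown replicate 1 or replicate 3 was left out. It was also lost with median centring (0.15), quantile normalization (0.267), a floor of 32 units (0.165), no filter (0.107) or the variance of the 6 compared arrays alone (0.691).

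Another 8 genes are given because, of the probe sets whose arrays did not overlap between the groups, theirs had the smallest p for a lower level. They did not pass the threshold (adjusted p up to 0.21). Among all probe sets 604 did not overlap in this direction (5.21%), and the 8 were picked from these, so their gaps describe them and test nothing. Safb2, which encodes a protein that binds RNA and scaffold attachment regions of chromatin, read 1182, 1259 and 1206 units in control eggs and 551.6, 458.8 and 470.9 after Dcp2 siRNA. Its log2 change was -1.30 ± 0.18, with an adjusted p of 0.0812. The 3 controls were nearly alike, and the level after Dcp2 siRNA was 2.47-fold lower on average.

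Edrf1, the erythroid differentiation regulatory factor, showed the steepest of these changes that was measured on both sides. It read 523.7, 666.4 and 479.8 units in control eggs and 146.6, 155.1 and 82.9 after Dcp2 siRNA. Its change was -2.16 ± 0.37 (adjusted p 0.195), a 4.46-fold lower level. Its other probe sets changed by 0.16 and -1.29, so they did not all move alike. Usp7, a deubiquitinase known for acting on Mdm2 and p53, read 6014, 6683 and 6120 units against 3612, 3106 and 2468. Its change was -1.05 ± 0.19, and its 5 other probe sets lay between -0.5 and 0.57. Arhgap12 read 3367, 3937 and 3768 units against 1537, 1296 and 1123, a change of -1.49 ± 0.27. Its other probe sets lay at -0.91 and -0.44. Etnk1, an ethanolamine kinase, read 94.7, 91.7 and 89.7 units against 36.0, 43.5 and 30.1, a change of -1.35 ± 0.23, and its others lay at -1.43 and -0.81. In some other probe sets of these genes replicate 2 was not low. For Etnk1 the one at -1.43 ± 0.72 read 41.8, 186.5 and 24.0 beside controls of 110.1 to 216.3. For Edrf1 the one at -1.29 read 266.9, 956.8 and 200.5 beside controls of 575.1 to 1431. Replicate 2 lay within the control range in the other probe sets of Arhgap12. It lay above that range in the Usp7 probe set at -0.5.

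The remaining 3 were dim, and their folds are bounds against 32 units. Ipo8, an importin, read 42.7, 62.6 and 59.7 units in control eggs and 22.4, 24.0 and 21.0 after Dcp2 siRNA, at least 1.70-fold lower. Prpf39, a pre-mRNA processing factor, read 47.2, 83.7 and 50.2 against 23.1, 15 and 21.1, at least 1.82-fold lower. Zfp445, a zinc finger protein known for maintaining genomic imprints, read 32.9, 75.2 and 59.0 against 19.2, 9.7 and 17.5, at least 1.65-fold lower. Brighter probe sets of the same genes changed less and overlapped between the groups. For Ipo8 the brighter one lay at -0.42 ± 0.34, reading 3473, 2798 and 4446 in control eggs and 2243, 4109 and 1957 after Dcp2 siRNA, with replicate 2 among the controls. For Zfp445 the other 2 lay at -0.47 and -0.46, and the first of them read 139.5, 318.8 and 132.3 after Dcp2 siRNA beside controls of 205.7 to 313.5, again with replicate 2 high. The other probe sets of Prpf39 lay at -0.39 and -0.23.

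The eggs with both siRNAs, set against the eggs with Dcp1a siRNA alone, give the effect of Dcp2 siRNA on 6 other arrays. The named probe sets of all 10 lower genes, Dcp2 and Rlf included, were also lower there, as were 57.9% of all tested probe sets. Their arrays did not overlap there (27.1% of all tested were lower without overlap), with adjusted p from 0.000201 to 0.032. They were picked by p from a variance shared by all 12 arrays, so this is not an independent test. Those of Dcp2, Rlf, Ipo8, Prpf39 and Zfp445 passed the filter only through arrays without Dcp2 siRNA. Over all tested probe sets, 439 were called lower in that comparison (3.79%) and 959 higher (8.27%). Zfp445 read 85.7, 104.1 and 99.9 units after Dcp1a siRNA and 11.9, 12.1 and 10.4 after both, at least 3.01-fold lower against 32 units, while its other probe sets were not called (-0.74 and -0.33). For Usp7 the other probe sets lay at -0.59, 0.27, 0.07, 0.07 and 0.09 there. Edrf1 read 797.2, 483.1 and 686.7 against 85.0, 46.6 and 128.6, a change of -3.01. Another, dimmer probe set of Edrf1 was called in the opposite direction there, at 64.1, 98.0 and 67.5 units after Dcp1a siRNA and 129.3, 128.0 and 141.3 after both (0.82, adjusted p 0.0319). The brightest was lower without overlap, at 1048, 1475 and 1651 against 464.4, 232.5 and 1024, but was not called (-1.51, adjusted p 0.131). The probe sets of Edrf1 thus did not all move alike. The test of the difference between the 2 settings, the interaction, called 0 of the 10 genes, with a lowest adjusted p of 0.24, so the data do not show that the sizes differ.

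The 10 genes named as higher were not called. Their adjusted p ran from 0.296 to 0.425 and their log2 changes from 0.78 to 1.18. They too were picked as non-overlapping, as were 252 probe sets in this direction (2.17%). Upf1, the helicase at the centre of nonsense-mediated mRNA decay, read 1002, 687.2 and 593.3 units in control eggs and 1531, 1277 and 1643 after Dcp2 siRNA, a change of 0.99 ± 0.22. Khsrp, which binds AU-rich mRNAs and promotes their decay, read 2436, 1748 and 1683 against 3515, 2631 and 3945, a change of 0.78 ± 0.22. In both genes control 1 was the highest control.

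Slc2a10, a member of the glucose transporter family, had the tightest control values, 110.7, 115.1 and 113.3, against 173.3, 210.4 and 229.0 after Dcp2 siRNA. Ptgds, a prostaglandin D synthase, read 70.9, 58.0 and 47.2 against 121.5, 86.7 and 214.5, a change of 1.18 ± 0.34. The other 6 were Gstp1, a glutathione transferase, Ssc4d, a scavenger receptor, Ssh1, a phosphatase of cofilin, Cadm1, an adhesion molecule, Agpat1, an acyltransferase of phospholipid synthesis, and Xpc, a sensor of DNA damage. In eggs with Dcp1a siRNA the addition of Dcp2 siRNA gave a change of the same sign for all 10, arrays without overlap for 6 (21.5% of all tested), and a call for 1 (8.27% of all tested). That was Ptgds, at 88.6, 66.2 and 50.1 units after Dcp1a siRNA and 188.6, 234.4 and 143.2 after both, with a change of 1.48 and an adjusted p of 0.0175. A share of 1 in 10 called is near that of all probe sets. Other probe sets of Cadm1 lay at -0.29, 0.23 and 0.04 against control. Upf1 changed by 0.10 there, and its 3 Dcp1a knockdown arrays, at 937.9 to 1156, lay among the double knockdown arrays, at 954.4 to 1307. The interaction called 0 of these 10 as well (lowest adjusted p 0.223).

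**Figure D3:**
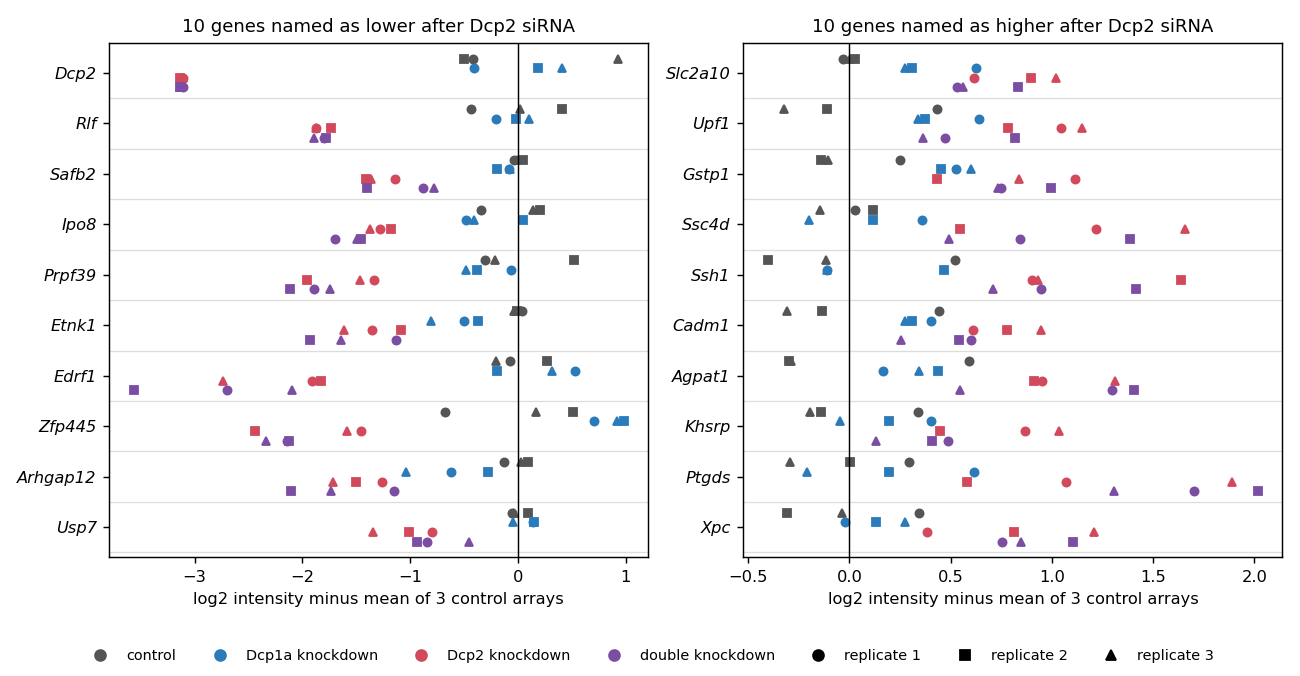
Log2 intensity minus the mean of the 3 control arrays for the 10 genes named as lower, left, and the 10 named as higher, right, with 1 symbol per array, colours for groups and shapes for replicates. For each lower gene the Dcp2 knockdown and double knockdown arrays lie left of all control arrays, Dcp2 at -3.12 and Usp7 at -1.05 on average over the Dcp2 knockdown. Of these 20 genes only Dcp2 and Rlf passed the threshold against control.

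Beyond the named genes, transcripts lower after Dcp2 siRNA were also lower in the other pair of groups at a share above the background. These shares do not come from independent tests, since the p-values of both comparisons used the variance shared by all 12 arrays. The filter also let in probe sets above 32 units only on arrays without Dcp2 siRNA, or only on arrays with it. That favours the same direction in both comparisons, and the number of such probe sets here was not counted. Of the 927 probe sets lower at an unadjusted p, 171 were called lower when Dcp2 siRNA was added to Dcp1a siRNA. That is 18.4% of the 927 and 39% of the 439, where 3.79% of all tested were called lower, while 50 (5.39%) were called higher. Of the 356 higher at an unadjusted p, 37 were called higher there, 10.4% of the 356 and 3.86% of the 959, beside 8.27% of all tested, and 0 were called lower. By the ranges of the arrays, 321 of the 604 lower probe sets without overlap (53.1%) were also lower without overlap in the other pair of groups, where 27.1% of all tested were, and 56 (9.27%) were higher. Among the 252 higher, 83 (32.9%) recurred, beside 21.5% of all tested. The share of 18.4% was 9.02% without Dcp2 knockdown replicate 2, 31.4% without control 3 and 31.9% without Dcp2 knockdown replicate 3.

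**Figure D4:**
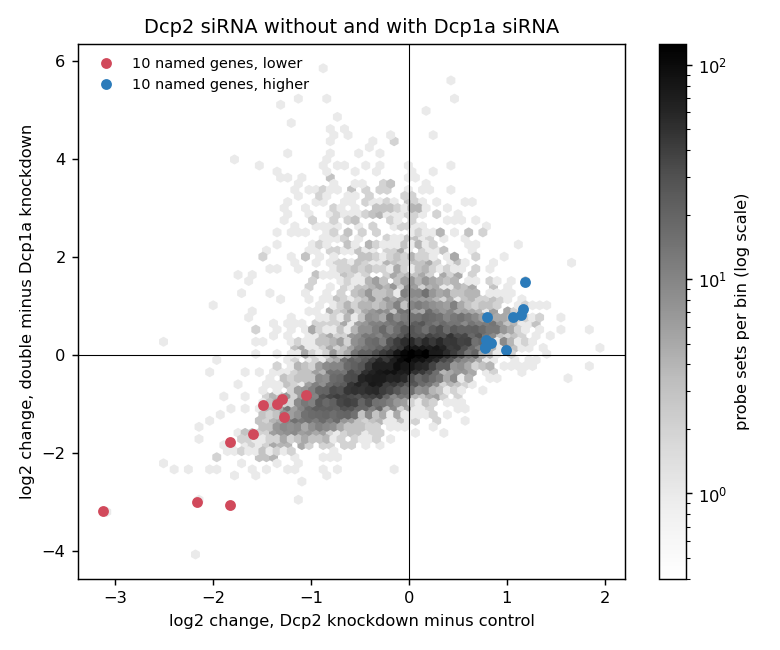
Log2 change of each tested probe set after Dcp2 siRNA against control (horizontal) and for both siRNAs against Dcp1a siRNA alone (vertical), the grey scale giving the number of probe sets per bin on a log scale. The 10 named lower genes (red) all lie at negative values on both axes and the 10 named higher genes (blue) at positive values on both. The horizontal axis runs from -3.12 to 1.95 over the probe sets and the vertical one from -4.08 to 5.85.

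Dcp2 knockdown eggs were also set directly against Dcp1a knockdown eggs. There 7 probe sets were called (0.0604%), 2 higher and 5 lower (0.0431%) in the Dcp2 knockdown. At an unadjusted p, 2108 were lower (18.2%) and 456 higher (3.93%).

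The decay machinery itself was read from 3 lists, with each gene represented by its brightest tested probe set. Over the 6998 genes so represented the median log2 change was -0.08, 488 were lower at an unadjusted p (6.97%) and 248 higher (3.54%), and 4.62% were lower with arrays that did not overlap. The list of decapping and 5′-end decay held 18 tested genes, of which Dcp2 was called. Lsm1, of the ring that binds deadenylated mRNA, was higher at an unadjusted p (0.42 ± 0.19), at 1375, 1128 and 1001 units in control eggs and 1807, 1277 and 1629 after Dcp2 siRNA, ranges that overlapped. Among the cofactors Dcp1b lay at 0.33 ± 0.18 and Edc4, the scaffold of the decapping complex, at 0.31 ± 0.16. The activators Ddx6 and Patl1 lay at -0.10 ± 0.24 and 0.01 ± 0.25, and Patl2, a Patl1 relative known from oocytes, at -0.89 ± 0.41. Xrn1, the exonuclease downstream of Dcp2, lay at 0.04 ± 0.36. The list's median was -0.07, beside -0.08 for all genes.

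Of 22 deadenylation genes, 3 were higher at an unadjusted p and 1 lower, and 0 were called. Cnot3, a subunit of the CCR4-NOT deadenylase, lay at 1.15 ± 0.43, with control 1 at 1466 units and the other controls at 476.9 and 608.0, against 1573, 1265 and 2328 after Dcp2 siRNA. Pan3, of the PAN2-PAN3 deadenylase, read 12880, 9290 and 9759 against 16830, 13500 and 13470, without overlap, a change of 0.46 ± 0.19. Cnot6, a catalytic subunit, lay at -0.67 ± 0.29. Of 17 exosome and nonsense-mediated decay genes, 1 was higher at an unadjusted p, Upf1, and 3 lower. The 3 were the exosome subunits Exosc3 (-1.36 ± 0.46) and Exosc7 (-1.20 ± 0.51) and the nonsense-mediated decay factor Smg8 (-0.85 ± 0.36). Exosc3 read 77.3, 94.0 and 184.1 in control eggs and 36.5, 79.8 and 27.4 after Dcp2 siRNA, so that replicate 2 lay among the controls.

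The maternal mRNA lists moved little. Of 26 genes of mRNA storage and translation, 1 was higher at an unadjusted p, Eif4ebp1, an inhibitor of the cap-binding protein Eif4e, at 1.02 ± 0.36. Dazl, an RNA-binding activator of maternal translation, read 2757, 3256 and 2890 in control eggs and 1739, 2375 and 1233 after Dcp2 siRNA, without overlap, at -0.78 ± 0.36. Of 56 genes of oocyte growth and maternal effect, 1 was higher and 3 lower at an unadjusted p. Ctcf, the chromatin insulator protein, was nearly constant at 10230, 10100 and 10490 in controls and read 7891, 7291 and 6242 after Dcp2 siRNA, a change of -0.53 ± 0.19. Bnc1, an oocyte transcription factor, lay at -1.12 ± 0.42 with replicate 2, at 1223 units, within the control range. The egg genes Gdf9, Zp2, Zp3 and Nlrp5 lay at -0.21, 0.27, 0.38 and 0.13, each less than its standard error from 0.

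Of 26 dormant maternal mRNAs that are recruited at maturation, 0 were higher and 2 lower at an unadjusted p, Dcp2 and Rad51c, a recombination protein (-0.43 ± 0.19). Btg4, Cnot7 and Cnot6l, which drive maternal mRNA clearance, lay at 0.02, -0.11 and 0.13. Of 60 meiotic cell cycle genes, 3 were higher and 2 lower at an unadjusted p. Anapc5, a subunit of the anaphase-promoting complex, read 6332, 6729 and 6545 in control eggs and 9343, 7775 and 9056 after Dcp2 siRNA, a change of 0.41 ± 0.16 without overlap. Cenpc1, a kinetochore protein, read 172.2, 193.3 and 195.5 against 90.5, 166.2 and 63.6, at -0.92 ± 0.32, where replicate 2 was close to the controls. Of the 16 kinetochore and spindle genes, 14 had a negative change, and of the 16 anaphase-promoting complex genes 8 did, where 57.7% of all genes did.

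The ribosomal and respiratory lists lay close to the median of all genes. The median log2 change was -0.18 over 38 cytosolic ribosomal proteins, -0.02 over 56 mitochondrial ribosomal proteins and -0.05 over 66 genes of oxidative phosphorylation, and in each list 0 genes were called. Rps7 read 473.0, 544.6 and 631.2 in control eggs and 341.4, 223.0 and 407.1 after Dcp2 siRNA, at -0.80 ± 0.22. Mrpl16, of the mitochondrial large subunit, read 295.7, 374.6 and 261.7 against 194.8, 163.6 and 104.0, at -1.04 ± 0.27. Sdha, a subunit of complex II, lay at -0.76 ± 0.29, with replicate 2 at 779.6 units beside controls of 837.4 to 913.2. When Dcp2 siRNA was added to Dcp1a siRNA the same 3 lists had medians of 1.29, 0.34 and 0.74, with 22, 16 and 27 genes called higher, beside 8.19% of all genes. The interaction called 13, 10 and 20 of their genes, all higher, beside 3.90% of all probe sets called higher and 0.0345% lower, so for those genes the effect of Dcp2 siRNA differed between eggs without and with Dcp1a siRNA.

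Of 33 proteasome genes 4 were lower and 1 higher at an unadjusted p, with a median of -0.31. Psmc1, an ATPase of the regulatory particle, read 570.0, 896.9 and 543.4 in control eggs and 417.5, 297.2 and 268.5 after Dcp2 siRNA (-1.02 ± 0.39). Of 41 ribosome biogenesis genes 4 were lower and 1 higher, with a median of -0.25. Ncl, the nucleolar protein nucleolin, read 2671, 5107 and 2685 against 1398, 1925 and 671.6, without overlap (-1.45 ± 0.41). Ncl was called lower when Dcp2 siRNA was added to Dcp1a siRNA, at -2.28 with an adjusted p of 0.00495, as were 3.32% of all genes. Of 37 splicing genes 3 were lower and 1 higher, with a median of -0.15, led by U2af1 (-1.36 ± 0.53) and Srsf10 (-0.92 ± 0.36). In U2af1 the spread over the Dcp2 knockdown was wide, from 139.4 units in replicate 3 to 744.6 in replicate 2.

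The stress list had the lowest median, -0.41 over 23 genes, of which 18 had a negative change. Of these, 5 were lower at an unadjusted p and 0 higher, and 0 were called. The chaperones Hspa5 of the endoplasmic reticulum (-1.81 ± 0.63), Dnaja1 of the cytosol (-1.53 ± 0.48) and Hspd1 of mitochondria (-0.91 ± 0.37) were lower. So were Nfe2l2, a transcription factor of the antioxidant response (-0.66 ± 0.29), and Gadd45a, induced by DNA damage (-0.78 ± 0.21). Dnaja1 read 926.7, 1091 and 2079 in control eggs and 602.5, 706.3 and 206.2 after Dcp2 siRNA. Gadd45a read 31.5, 50.8 and 38.3 against 21.5, 22.7 and 24.9, at least 1.23-fold lower against 32 units. By array the list's median lay at -0.40, -0.11 and -0.74 in replicates 1, 2 and 3, relative to the mean of the controls, and at -0.29 on control 1. Of 9 interferon and double-stranded RNA response genes 0 were higher or lower at an unadjusted p. The sensor Eif2ak2 lay at 0.26 ± 0.24, at 68.7, 66.9 and 115.2 units after Dcp2 siRNA, and the effector Oas1c at -0.42 ± 0.31. Of 12 histone and chaperone genes 0 were called and 0 had an unadjusted p under 0.05, and Slbp, which binds the stem-loop of histone mRNA, lay at -0.83 ± 0.39.

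With each array centred on its median, the list medians for decapping, deadenylation, oocyte growth, dormant mRNAs, meiotic cell cycle, mitochondrial ribosome, oxidative phosphorylation, histones, splicing and interferon turned positive (0.02 to 0.15). Those for stress, proteasome, ribosome biogenesis and exosome genes stayed negative in every alternative tried, the stress list between -0.61 and -0.22.

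**Figure D5:**
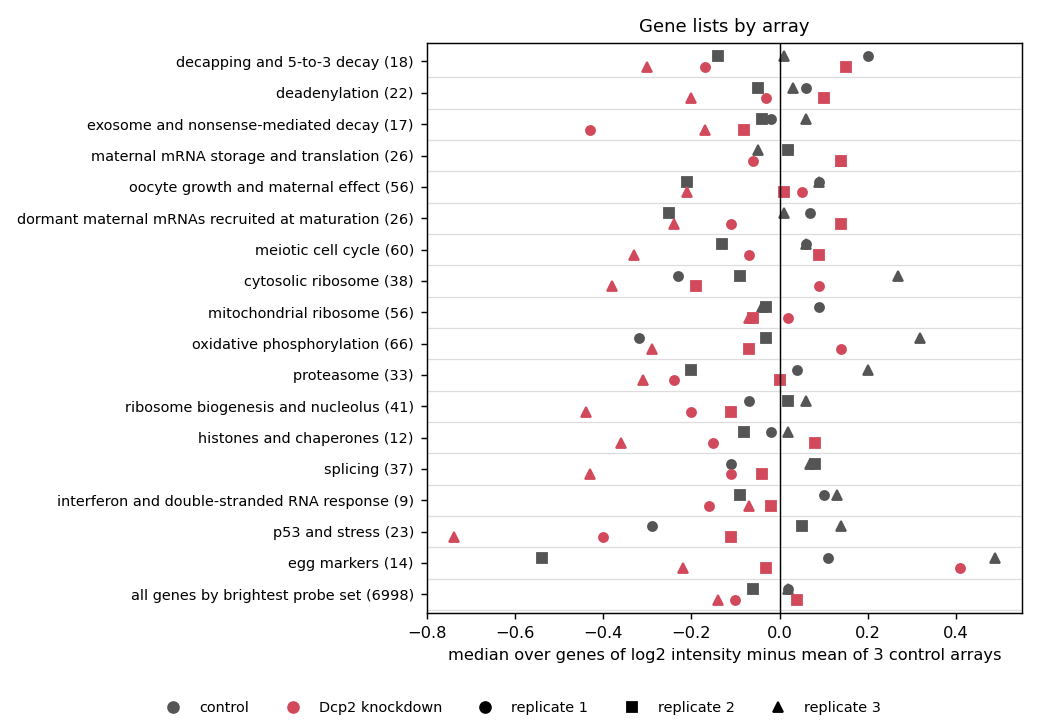
Median over the genes of each list (number of tested genes in parentheses) of the log2 intensity minus the mean of the 3 control arrays, for control arrays (grey) and Dcp2 knockdown arrays (red), with shapes for replicates. Replicate 3 of the Dcp2 knockdown has the lowest value for the stress list (-0.74), where replicate 2 lies at -0.11, and control arrays spread from -0.54 to 0.49 for the egg markers.

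Replicate 2 of the Dcp2 knockdown showed few of the large differences from control that replicates 1 and 3 shared. In 788 probe sets replicates 1 and 3 were both more than 1 log2 unit below the control mean, with medians of -1.29 and -1.79. Replicate 2 had a median of -0.03 in them and was itself more than 1 below in 37 (4.70%) and below at all in 427 (54.2%). In 108 probe sets replicates 1 and 3 were both more than 1 above, and replicate 2 was in 8 (7.41%) and above at all in 90 (83.3%), with a median of 0.32 beside 1.15 and 1.5. These sets were chosen on replicates 1 and 3, so the values describe them without a test.

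The genes picked for the largest distance between replicate 2 and a close pair of replicates 1 and 3 were of both kinds, some with replicates 1 and 3 away from the controls and some with replicate 2 away from them. Aftph, a protein of clathrin-coated vesicle traffic, read 6.1 and 6.3 units in replicates 1 and 3 and 76.1 in replicate 2, with controls at 18.7 to 71.6. Slc25a4, the ADP/ATP carrier of mitochondria, read 116.9 and 93.1 against 996.2 in replicate 2, with controls at 461.7 to 999.1. Hdac2, a histone deacetylase, read 89.6 and 80.3 against 745.4. Smarca2 was higher in replicate 2 by 3.04 log2 units, at 655.6 units beside controls of 248.9 to 406.4. Trim24, at 1144 units in replicate 2 and 104.9 and 141.3 in replicates 1 and 3, lay above all controls (289.6 to 751.5) in replicate 2 and below them in the other 2. Ralgapa1 read 23.1 in replicates 1 and 3, among dim controls of 19 to 59.9, and 191.9 in replicate 2. In the other direction replicate 2 lay below the control range, while replicates 1 and 3 lay within it, except for replicate 1 in Snap29. Plekhg1, a guanine nucleotide exchange factor, read 1225 and 1260 in replicates 1 and 3 and 126.0 in replicate 2, with controls at 605.5 to 2564. Xrcc5, the Ku80 subunit of DNA end joining, read 894.7 and 1232 against 153.4, with controls at 506.3 to 1274. Snap29, a membrane fusion protein, read 903.9 and 712.3 against 123.6, with controls at 258.4 to 750.1. Asxl2, Afap1 and Arfgef2 read 7.2, 18.9 and 4.9 units in replicate 2, below 32 units, and 66.6 and 65.9, 164.8 and 138.9, and 36.4 and 39.3 in replicates 1 and 3.

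Without replicate 2 the calls were the following, named after their values were seen. Lower were Dcp2, Rlf, 1 unnamed probe set, and Kif2a, a kinesin that shortens spindle microtubules (-2.70), by a probe set other than its brightest. Also lower were the germ cell genes Stk31 (-2.84), Asz1 (-2.03), needed for piRNA production, and Hormad1 (-2.09), of the meiotic chromosome axis. So were Prpf4b (-1.92), Usp1 (-1.89), a deubiquitinase of DNA repair, Kpnb1 (-1.58), an importin, and Uqcc1 (-1.38), an assembly factor of respiratory complex III. Aqp11, an aquaporin, was higher (1.58). In replicates 1 and 3 Stk31 read 9.3 and 10.6 units, Hormad1 24.6 and 28.7, and Asz1 38.3 and 23.1. The Aqp11 controls read 28.1, 28.1 and 19.2. With such values near or under 32 units, the sizes of these changes are not fixed by the data. In 6 of the 12 probe sets called without replicate 2, replicate 2 lay within the control range. In Kpnb1 it lay above that range, at 449.7 units beside controls of 310.9 to 387.7. When Dcp2 siRNA was added to Dcp1a siRNA, 6 of the 12 were called in the same direction, beside 3.79% of all tested called lower. They were Dcp2 and Rlf, already counted above, and Kif2a (-2.39, adjusted p 0.00926), Hormad1 (-1.55, 0.00967), Asz1 (-1.86, 0.00476) and Usp1 (-1.44, 0.0425). The 12 were picked by p, and their variance was shared with that comparison, so this is not an independent test. Dcp2, the target of the siRNA, and Rlf passed the filter only through arrays without Dcp2 siRNA.

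Control 1 bears on the number of higher calls. Without it 188 probe sets were called higher, and in 184 of these control 1 itself was at or above the lowest Dcp2 knockdown array. Of the 35 called lower, control 1 was at or below the highest Dcp2 knockdown array in 10. These probe sets were chosen by leaving control 1 out, so its place in them describes them and tests nothing. Relative to the mean of controls 2 and 3, these 188 had a median log2 level of 1.70 on control 1, 1.34 over the Dcp2 knockdown and 1.25 over the Dcp1a knockdown. Mos, the kinase that holds the egg at metaphase, read 19080 on control 1, 5211 and 7985 on the other controls, and 13820, 11810 and 15760 after Dcp2 siRNA. Tpx2, a spindle assembly factor, read 2836 on control 1, 771.8 and 996.9 on the others, and 2129, 1685 and 2603. Without control 1 both were called higher, Mos by 1.09 and Tpx2 by 1.26, and with all controls they lay at 0.57 ± 0.37 and 0.70 ± 0.39. Of the probe sets named above, those of all 10 lower genes were called without control 1. So were the named probe sets of the higher genes Upf1, Ssh1, Cadm1 and Agpat1, and, at 1.43 and 1.31, other probe sets of Khsrp. Over all 11593 tested, 35 were called lower and 188 higher. The named genes were picked on these same arrays, so the counts describe them and test nothing. What sets control 1 or Dcp2 knockdown replicate 2 apart was not tested. The difference between the 3′ and 5′ probe sets of a control gene is a measure of RNA length, and the 2 genes did not order the arrays alike. For Gapdh it was 6.60 log2 units on control 1 and 7.30 and 7.46 on the other controls, and for actin 7.90 on control 1 and 6.28 and 6.52 on the others. On Dcp2 knockdown arrays 1 to 3 it was 7.96, 7.91 and 7.41 for Gapdh and 6.47, 7.64 and 7.84 for actin.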

How the data were processed

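The table held 1 intensity per probe set for each of 12 Affymetrix mouse arrays, on a linear scale. Each intensity was computed by the authors with GCRMA, according to the submitters' processing notes, which name no version. GCRMA makes values relative within an array, so total mRNA per egg was not measured.

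Intensities were log2 transformed, and 64 control probe sets out of 45101 were dropped. The 11593 with log2 above 5 (32 units) on at least 3 of the 12 arrays were tested, of which 131 were at or under 32 units on all 6 compared arrays. One gene symbol was listed for 10699, several for 334 and none for 560. Of 34945 single Entrez numbers, 34741 matched RefSeq (GRCm38.p6), and 0 symbols changed. The number of arrays limits precision.

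Comparisons used limma 3.58.1 (R 4.3.3), fitting group means over 12 arrays with lmFit and moderating the variance with eBayes (8 residual and 2.97 prior degrees of freedom), two-sided, with Benjamini-Hochberg adjustment and a threshold of 0.05. The fit was tested on simulated data with independent noise, the same spread in all groups and no outlying array. These settings differ from the data, where the groups had unlike spreads. Errors are standard errors. Where the dimmer group's mean or median log2 was at or under 5, folds are bounds against 32 units.

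Named were Dcp2, Dcp1a and up to 15 called genes each way with 1 symbol, not of clone style, and arrays without overlap, filled to 10 by smallest p. From each list came up to 4 called members or the 2 with the smallest p, and for replicate 2 the 6 genes each way farthest from replicates 1 and 3. Other list members are given for their role. Lists and members were chosen with earlier results of these data known. Alternatives covered variance, weights, floor, filter, scaling, block and arrays left out.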

Additional observations from a re-analysis of the deposited data

Results flagged for a closer look

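The effect of Dcp2 siRNA differed between eggs without and with Dcp1a siRNA in 3 of the genes named from the lists, by limma's interaction test. Emg1, a ribosome biogenesis methyltransferase, read 19, 18.1 and 33.4 units in control eggs, 10.2, 10.6 and 8.2 after Dcp2 siRNA, 19.9, 19.5 and 21.9 after Dcp1a siRNA, and 123.3, 165.1 and 141.0 after both. Its fitted interaction was 4.03 on the log2 scale, with an adjusted p of 0.000168. All but 1 of the values without both siRNAs lay under 32 units, so that size is not fixed by the data and no fold is given for Dcp2 siRNA against control. Both siRNAs against Dcp1a siRNA gave a level at least 4.44-fold higher against 32 units. Cox4i1, a subunit of respiratory complex IV, lay at -0.65 ± 0.25 against control and at 2.51 when Dcp2 siRNA was added to Dcp1a siRNA, an interaction of 3.16 with an adjusted p of 0.000845. Rps7, of the small ribosomal subunit, lay at -0.80 and 0.93, an interaction of 1.72 with an adjusted p of 0.0121. Groups of 3 arrays were not tested for single outlying samples.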

How the results depend on the processing

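The 2 calls (2 lower, 0 higher) remained the same 2 probe sets with an intensity trend. They were 0 (0 lower) with the variance taken from the 6 compared arrays or with intensities under 32 set to 32. There was 1 call (1 lower) with log2 above 6 as the minimum, where Dcp2 was not tested, with median centring and with quantile normalization. Without a filter, 2 were called, both higher and 0 lower. With array weights 1752 were called, 581 higher and 1171 lower, but the weights did not converge. Leaving out 1 array gave 0 to 223 calls, 0 to 188 higher and 0 to 35 lower. Dcp2 mRNA kept its change of -3.12 but not its call with the variance of 6 arrays (adjusted p 0.691) and without a filter (0.161). With the floor it fell by 0.45 (0.508), and with 1 array left out it ranged from -3.37 to -2.66, its call being lost without Dcp2 knockdown replicate 1 (0.129) or 3 (0.113). Rlf lost its call in 8 alternatives, with adjusted p from 0.107 to 0.691. Of 283 alternative values for the named genes besides Dcp2, 0 changed direction. These genes were picked for arrays without overlap, so leaving out 1 array or changing the variance could not turn a direction. Dcp2 against Dcp1a knockdown gave 3 calls after quantile normalization.

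Same-numbered control and Dcp2 knockdown arrays deviated from their group means with r of -0.17, 0.01 and -0.52, which gave no sign of pairing by number. With 3 arrays a group, 1 or 2 outlying arrays can set such correlations, so they cannot settle whether same-numbered arrays shared a batch. With the replicate number as a block there were 2 calls, Dcp2 among them (adjusted p 0.0467), 1091 instead of 1398 for both siRNAs against Dcp1a siRNA, 331 instead of 456 for the interaction, and 1 instead of 7 for Dcp2 against Dcp1a knockdown. Signals near 32 units limit the folds of Dcp2, Rlf, Ipo8, Prpf39 and Zfp445. They also limit those of Stk31, Hormad1, Asz1 and Aqp11 without Dcp2 knockdown replicate 2.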
